A study of Mus musculus with 4 samples.

Results

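The miR-17-92 and miR-106b-25 clusters are 2 groups of miRNAs, each cut from a single primary transcript. The members were the 9 miRNAs whose name on the array was that of a mature strand of these clusters, with the star strands left out, and they were 9 of the 611 mouse miRNAs on the arrays. Of the 9, 6 come from the Mir17hg transcript (mmu-miR-17, mmu-miR-18a, mmu-miR-19a, mmu-miR-20a, mmu-miR-19b and mmu-miR-92a) and 3 from an intron of Mcm7 (mmu-miR-106b, mmu-miR-93 and mmu-miR-25). Liver miRNAs of male WT mice and male *Clock* mutant (ClockΔ19) mice were measured on 1-colour Agilent arrays at ZT2 and ZT14, that is 2 h and 14 h after lights on. The mice were 6 to 8 weeks old and had been kept alone in cages under 12 h of light and 12 h of dark for 2 weeks with free food and water. There were 4 arrays, 1 for each genotype at each time, and each was hybridized with the mixed liver RNA of 3 mice. ClockΔ19 is a mutation of the whole animal, carried in every cell, and no other allele or agent was named for either genotype. Since there was 1 array per condition, no ratio of 2 arrays has a replicate, and the number of arrays limits the precision. The arrays were 4 positions of a single slide that was scanned at one time.

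A miRNA primary transcript is cut into hairpins and then into short mature strands, and a mature strand finds its target mRNAs mainly through the bases near its 5′ end called the seed. The miR-17-92 transcript is a Myc and E2F target known for driving proliferation, and its miRNAs repress the cell cycle inhibitor Cdkn1a and the apoptosis factor Bcl2l11. The miR-106b-25 hairpins lie within Mcm7, which encodes a subunit of the replicative DNA helicase, and are made together with its mRNA. Both clusters are active in dividing cells, and in adult liver most hepatocytes are at rest.

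The 9 mature sequences fall into 4 groups by seed, and they are shown because the seed, the near identity of some members and the base composition are set beside the array values below. All 9 matched an entry of the RefSeq tables of build GRCm38.p6, and the seed, bases 2 to 8, is in capitals. The seed AAAGUGC is shared by 4 members, which lie on both transcripts.
mmu-miR-17: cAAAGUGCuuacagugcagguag
mmu-miR-20a: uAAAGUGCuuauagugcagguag
mmu-miR-106b: uAAAGUGCugacagugcagau
mmu-miR-93: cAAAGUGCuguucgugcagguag
A single member, miR-18a, has a seed that differs from it by 1 base.
mmu-miR-18a: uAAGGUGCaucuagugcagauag
The miR-19 seed belongs to the Mir17hg transcript alone.
mmu-miR-19a: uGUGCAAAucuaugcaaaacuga
mmu-miR-19b: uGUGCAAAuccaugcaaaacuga
The remaining seed has a member on each transcript.
mmu-miR-92a: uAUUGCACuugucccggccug
mmu-miR-25: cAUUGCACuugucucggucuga

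Counted from 1 at the 5′ end, miR-19a and miR-19b differ at 1 position (U11C), miR-17 and miR-20a at 2 (C1U and C12U), and miR-92a and miR-25 at 3 of 21 compared (U1C, C14U and C18U). The content of G and C ran from 34.8% in miR-19a, through 39.1% in miR-20a and miR-19b and 42.9% in miR-106b, to 57.1% in miR-92a. On chromosome 14 the 6 Mir17hg hairpins span 836 bases on the plus strand, from chr14:115043671 to the end of the miR-92a hairpin at 115044506. Only the miR-92a hairpin lies inside the annotated Mir17hg gene, 115044390 to 115046728, and the other 5 start before it. On chromosome 5 the 3 Mcm7 hairpins span 498 bases on the minus strand, all inside Mcm7 (138164583 to 138172111). The mature sequences of miR-19b and miR-92a are each made at 2 places, here and on the X chromosome, so the array values of these members cannot be assigned to 1 transcript.

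Of the 9 members, 7 were detected on all 4 arrays, miR-18a on 3 and miR-17 on none, where detection is the scanner software's own call. By comparison, 123 of the 611 mouse miRNAs were detected on all 4 arrays. Signals are given as a multiple of the 75th percentile of each array over those 123 miRNAs, which was 537 units for WT and 503 for the mutant at ZT2, and 339.9 for WT and 536 for the mutant at ZT14. Detected mouse miRNAs numbered 138 to 193 per array and no spot of a member was saturated. The spot SD given with a ratio is the SD of single repeated spots of a probe on the 2 arrays combined, on the log2 scale. A ratio is formed from means over spots, so the spot SD is wider than the error that the spots give it. A ratio within the spot SD is therefore not shown to be spot noise. The spot SD covers the array surface alone and neither mice nor pools, and the probes of different miRNAs were not compared in level.

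The members of the Mir17hg transcript are taken first, from the 5′ end. The array name miR-17 stands for the founding member of the family, and its signals were 1.84 units in WT against 2.31 in the mutant at ZT2, and −2.48 against 2.48 at ZT14. Negative control spots averaged 5.65 to 9.53 units, and the mean of the miR-17 probes lay below them on every array, although the brighter probe alone, at 7.97 and 6.08 units at ZT2, was just above their means of 6.60 and 5.65 there. The array annotation of both its probes lists miR-17 together with miR-106a, a paralog on the X chromosome that differs by 1 base (U10A). No ratio was taken for it. Whether its probes respond to miR-17 was not tested, so the low signals do not show how much miR-17 these livers held.

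For miR-18a, the scaled signal was 0.0315 in WT against 0.0238 in the mutant at ZT2, and at ZT14 it was 0.0218 in the mutant and 0.0159 in WT, where it was not detected. It stood close to background on every array. The log2 ratio of mutant to WT at ZT2 was −0.40 with a spot SD of 1.02. That of ZT14 to ZT2 in the mutant was −0.13 with a spot SD of 1.03, so both were within the spot SD. On the WT array at ZT14 its own signal, 5.41 units, lay above the lowest detected signal, 3.02 units, and served as the floor. Against it, miR-18a was 1.37-fold higher in the mutant at ZT14 and 1.98-fold higher in WT at ZT2. These are ratios to a signal that was not detected, and they are not bounds. The mean of the negative control spots was also taken for the floor, a choice made after the values were seen. With that floor the second ratio had a lower bound of 1.12-fold and the first had none.

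The scaled signal of miR-19a, the first carrier of the miR-19 seed, was 0.297 in WT against 0.276 in the mutant at ZT2, and 0.166 against 0.173 at ZT14. Both arrays at ZT14 lay below both at ZT2. It was 1.79-fold lower at ZT14 than at ZT2 in WT, a log2 ratio of −0.84 with a spot SD of 0.16, and 1.59-fold lower in the mutant, a log2 ratio of −0.67 with a spot SD of 0.11. Between genotypes it differed by −0.11 at ZT2 and by 0.06 at ZT14 on the log2 scale, both within the spot SD.

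Next along the transcript is miR-20a, which carries the miR-17 seed. Its scaled signal was 0.677 in WT against 0.761 in the mutant at ZT2, and 0.437 against 0.566 at ZT14. The order of the arrays by time was that of miR-19a, and at both times the mutant was the higher genotype. From ZT2 to ZT14 the log2 ratio was −0.63 with a spot SD of 0.11 in WT and −0.43 with 0.08 in the mutant. Mutant over WT, it was 0.17 with a spot SD of 0.09 at ZT2 and 0.37 with 0.10 at ZT14, which was 1.29-fold and the highest genotype ratio of any member.

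The scaled signal of miR-19b, the second carrier of the miR-19 seed, was 1.95 in WT against 2.08 in the mutant at ZT2, and 1.34 against 1.48 at ZT14. Again both ZT14 arrays were below both ZT2 arrays, with a log2 ratio of ZT14 to ZT2 of −0.54 with a spot SD of 0.07 in WT and −0.50 with 0.08 in the mutant. The genotype ratios, 0.09 at ZT2 and 0.14 at ZT14, were small, though past their spot SDs of 0.07 and 0.08.

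The last hairpin gives miR-92a, whose seed is shared with miR-25. Its scaled signal was 0.814 in WT against 1.03 in the mutant at ZT2, and 0.771 against 0.853 at ZT14. The mutant array at ZT2 stood above the other 3. The WT arrays at the 2 times differed by less than the spot SD, with a log2 ratio of −0.08 and a spot SD of 0.08. In the mutant the log2 ratio of ZT14 to ZT2 was −0.27 with a spot SD of 0.08. Between genotypes the log2 ratio of mutant to WT was 0.34 with a spot SD of 0.08 at ZT2 and 0.15 with 0.08 at ZT14.

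Of the Mcm7 members, miR-106b carries the miR-17 seed and represses Cdkn1a. Its scaled signal was 0.323 in WT against 0.314 in the mutant at ZT2, and 0.257 against 0.232 at ZT14. Both ZT14 arrays were below both ZT2 arrays, and the mutant was slightly below WT at each time. Its log2 ratio of ZT14 to ZT2 was −0.33 with a spot SD of 0.13 in WT and −0.44 with 0.14 in the mutant, and that of mutant to WT was −0.04 at ZT2, within its spot SD of 0.12, and −0.15 at ZT14, just past a spot SD that rounds to the same 0.15.

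The scaled signal of miR-93, again with the miR-17 seed, was 0.193 in WT against 0.221 in the mutant at ZT2, and 0.163 against 0.172 at ZT14. Its spots were the most variable of the 7, with spot SDs of the ratios from 0.22 to 0.28. Its log2 ratio of ZT14 to ZT2 was −0.25 in WT, within the spot SD, and −0.37 in the mutant, past it. Both genotype ratios, 0.20 and 0.08, were within the spot SD.

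The scaled signal of miR-25 was 0.193 in WT against 0.241 in the mutant at ZT2, and 0.189 against 0.212 at ZT14. As for miR-92a, the mutant array at ZT2 was the highest and the WT arrays lay together, with a log2 ratio of ZT14 to ZT2 of −0.03 and a spot SD of 0.18. In the mutant that ratio was −0.19 with a spot SD of 0.11. Mutant over WT, the log2 ratio was 0.32 with a spot SD of 0.14 at ZT2 and 0.16 with 0.15 at ZT14.

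**Figure D1:**
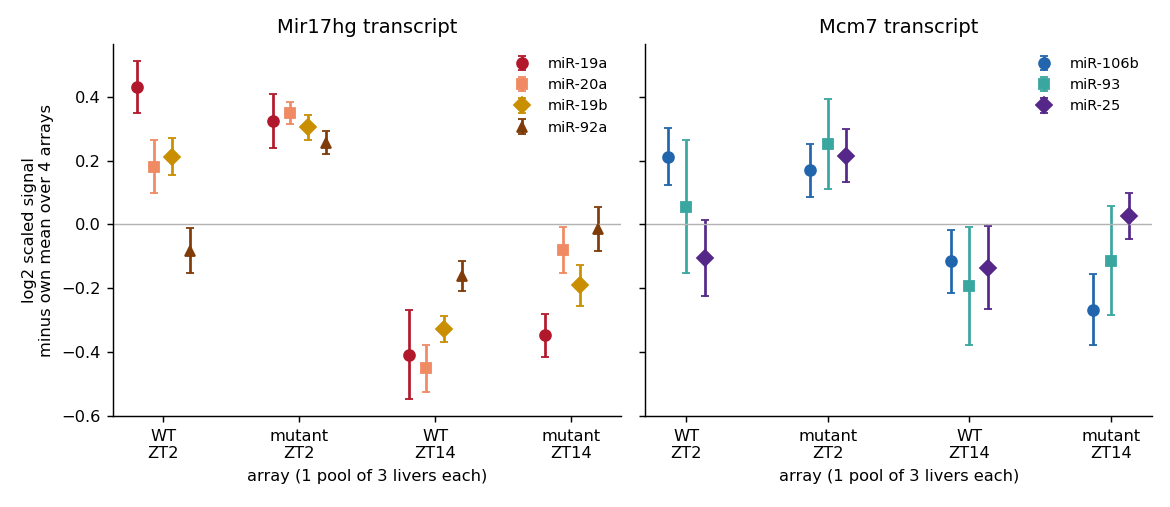
Log2 scaled signal of each member detected on all 4 arrays, minus the member's own mean over the arrays, for WT and *Clock* mutant liver at ZT2 and ZT14, with the Mir17hg members on the left and the Mcm7 members on the right. Each point is 1 array, a pool of 3 livers, and bars are the SD of repeated spots. For miR-19a, miR-20a, miR-19b and miR-106b both ZT14 points lie below both ZT2 points, whereas miR-92a and miR-25 are highest in the mutant at ZT2.

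The first comparison asked whether the clusters differed in liver between ZT2 and ZT14. All 7 members had lower scaled signals at ZT14 than at ZT2 in WT and in the mutant, where 77.2% and 82.9% of the 123 miRNAs were also below 0. The median log2 ratio over the Mir17hg members was −0.59 for WT and −0.46 for the mutant, and over the Mcm7 members −0.25 and −0.37, against medians over the 123 miRNAs of −0.13 in WT and −0.17 in the mutant. The ratio was below 0 by more than the spot SD for 4 of 7 members in WT (44.7% of the 123) and for 7 of 7 in the mutant (55.3% of the 123). No member differed 2-fold, the study's threshold, which 3.65% of the 137 miRNAs detected on both WT arrays and 6.43% of the 140 detected on both mutant arrays passed. The sign of the members' ratios depended on the scaling. With each array divided by the 75th percentile over all mouse miRNAs, 4 of 7 members were below 0 in WT and 1 of 7 in the mutant, and the median over the 123 miRNAs moved to 0.17 in WT and 0.33 in the mutant. A scaling by 1 number per array leaves a member's distance from that median as it is, so the distance is given too.

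Relative to the median of the 123 miRNAs, miR-19a lay 0.71 lower on the log2 scale in WT, at rank 6 from the lowest, and 0.50 lower in the mutant, at rank 12. The corresponding log2 distances were −0.51 and −0.26 for miR-20a, at ranks 12 and 15, and −0.41 and −0.33 for miR-19b, at ranks 16 and 13. For miR-106b they were −0.20 and −0.27, at ranks 26 and 14. These 4 members were below the median in both genotypes under each of the 15 alternatives run for each ratio, some of which are scalings by 1 number per array that leave a distance as it is by construction. The distances of miR-92a were 0.05 in WT and −0.10 in the mutant, and those of miR-25 were 0.10 and −0.02. The sign for miR-92a held under 12 of 15 alternatives in WT and 14 of 15 in the mutant, and that for miR-25 under 15 and 13. With quantile normalization the distance of miR-25 in WT was 0.34 and that of miR-92a in the mutant −0.30. With miR-93 the distances were −0.12 and −0.20, and the sign held under 12 of 15 alternatives in WT and 14 of 15 in the mutant. Quantile normalization gave 0.0302 in WT, normexp background correction 0.0430, and the dimmer probe alone 0.0373 in the mutant. The scanner's own summed signal gave 2.34 in WT, where that sum on the WT array at ZT14 was 437 units where the member's own probes added up to 69.0.

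**Figure D2:**
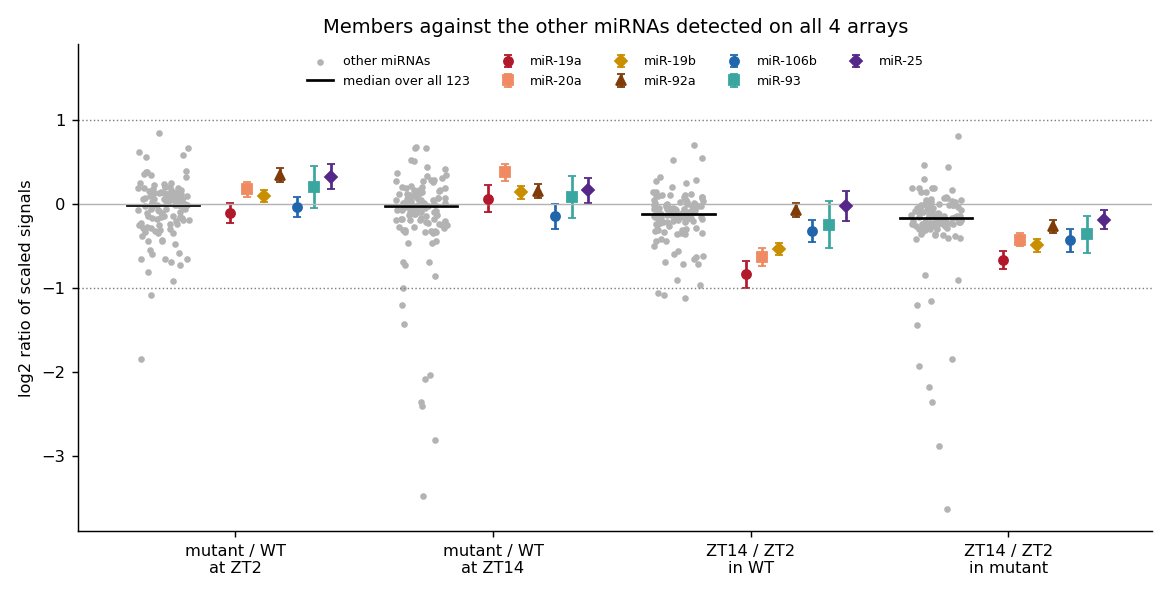
Log2 ratio of scaled signals in the 4 comparisons, each of 2 arrays. Grey points are the 116 other miRNAs detected on all 4 arrays, the black line is the median over all 123, coloured points are the 7 members with the SD of repeated spots, and dotted lines mark 2-fold. Between time points miR-19a, miR-20a, miR-19b and miR-106b lie below the black line in both genotypes, from −0.33 for miR-106b to −0.84 for miR-19a in WT, and no member reaches a dotted line.

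Time point and genotype were tested together over the 4 arrays in an additive fit with limma. In it each term has 2 arrays per level, and 1 residual degree of freedom per miRNA is left. That residual is the change of the genotype ratio with time, which limma combines with the residuals of all 123 miRNAs. Arrays of different conditions thus stand in for replicates. The SEs, intervals and p-values of the fit rest on this residual and do not measure spread between mice or pools. For time, limma called 0 of 123 miRNAs at an adjusted p under 0.05 after Benjamini-Hochberg adjustment, and 12 (9.76%) had an unadjusted p under 0.05, all lower at ZT14. Of the 7 members, 4 were among these 12, a count that depended on the scaling. It was 0 of 7 where the 75th percentile was taken over all mouse miRNAs (15 of the 123) and with quantile normalization (13 of the 123). With median scaling it was 1 of 7 (4 of the 123), and without scaling also 1 of 7 (12 of the 123). The log2 difference of ZT14 from ZT2 for miR-19a was −0.76 with an SE of 0.13 and a limma adjusted p of 0.195, which was also the smallest adjusted p of all 123 miRNAs. The differences for miR-20a, −0.53 with an SE of 0.13, and for miR-19b, −0.52 with an SE of 0.12, each had a limma adjusted p of 0.346. That of miR-106b was −0.38 with an SE of 0.13 and a limma adjusted p of 0.447. Those of miR-93, miR-92a and miR-25 were −0.31, −0.17 and −0.11, with limma adjusted p from 0.525 to 0.696, while the median over the 123 miRNAs was −0.15. Thus none of the members passed the test. With this scaling each of them was lower at ZT14 in 2 of 2 genotypes, a direction that depended on the scaling. Relative to the median of the 123 miRNAs, miR-92a and miR-25 lay above it in WT and below it in the mutant. With the WT array at ZT14 left out and time as the only term, limma called 13 of 123, among them 1 member.

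The second comparison asked whether the clusters differed between the *Clock* mutant and WT. At ZT2 the log2 ratio of mutant to WT exceeded its spot SD upwards for 4 of 7 members (28.5% of the 123), miR-20a, miR-19b, miR-92a and miR-25, and downwards for none (29.3% of the 123). At ZT14 the same count was 4 of 7 upwards (21.1% of the 123), for these members again, and 1 of 7 downwards (31.7% of the 123), which was miR-106b. No member differed 2-fold, which 2.5% of the 160 miRNAs detected on both arrays did at ZT2 and 6.5% of the 123 at ZT14. Median log2 ratios were 0.13 at ZT2 and 0.14 at ZT14 over the Mir17hg members and 0.20 and 0.08 over the Mcm7 members, while the medians over the 123 miRNAs were −0.01 and −0.03. Relative to the median of the 123 miRNAs, miR-20a lay 0.18 higher on the log2 scale at ZT2 and 0.40 higher at ZT14, miR-92a 0.35 and 0.18, and miR-25 0.33 and 0.19, and these signs held under 15 of 15 alternatives. Without any scaling the median over the 123 miRNAs at ZT14 was 0.63 and no member was below 0, so that the downward ratio of miR-106b at ZT14 is one relative to the other miRNAs. The same 4 arrays enter this comparison and the one between time points, and the ratios of both kinds are therefore not independent.

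For genotype, limma called 0 of 123 miRNAs at an adjusted p under 0.05, and 10 (8.13%) had an unadjusted p under 0.05, with no member among them. Division by the 75th percentile of all mouse miRNAs moved the median over the 123 miRNAs from −0.02 to 0.39, and then 53 of 123 and 5 of 7 members had an unadjusted p under 0.05, with limma adjusted p of the 7 members from 0.103 to 0.145. The log2 difference of mutant from WT was 0.27 with an SE of 0.13 for miR-20a, with a limma adjusted p of 0.462. Relative to the median of all miRNAs it was 0.29, and with genotype as the only term it was 0.54 without the WT and 0.17 without the mutant array at ZT2, and 0.0605 without the WT array at ZT14. It was 0.24 for miR-92a and 0.24 for miR-25, each with an SE of 0.13 and a limma adjusted p of 0.490. For miR-93, miR-19b, miR-19a and miR-106b the differences were 0.14, 0.11, −0.02 and −0.10, with limma adjusted p from 0.725 to 0.953. The 95% interval of the difference ran from −0.10 to 0.64 for miR-20a and from −0.45 to 0.26 for miR-106b. These intervals hold 0 and also changes of over 1.5-fold for miR-20a, so they do not show that the genotypes were alike. They do not measure spread between mice or pools either.

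**Figure D3:**
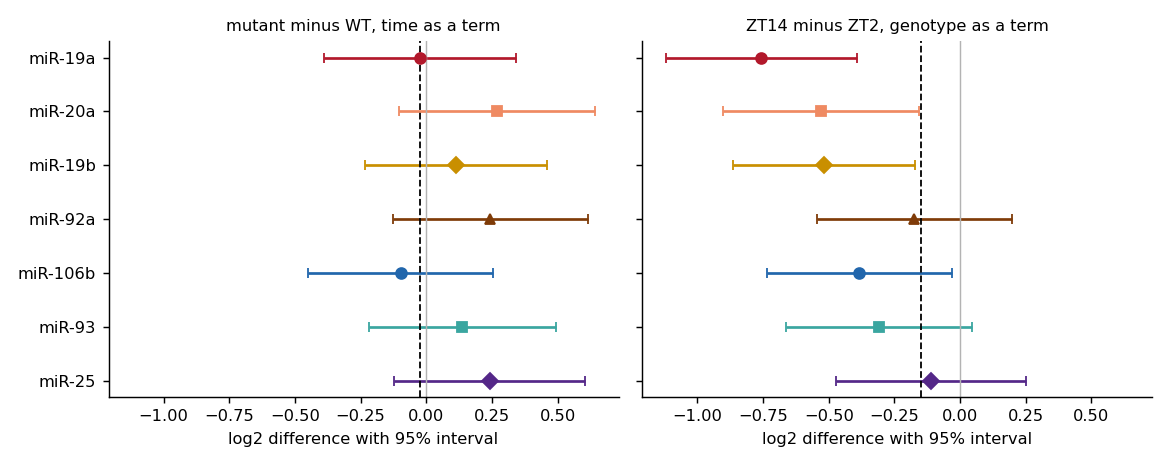
Log2 difference of each member between genotypes (left) and between time points (right) in the additive limma fit over 4 arrays. Points are estimates and bars are 95% intervals, which do not measure spread between mice or pools. The grey line is 0 and the dashed line is the median over all 123 miRNAs, −0.02 for genotype and −0.15 for time. For time all 7 points are below 0 and the interval of miR-19a, −1.12 to −0.39, ends below the dashed line, while for genotype every interval holds 0.

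Whether the genotype ratio itself changed with time cannot be tested with 1 array per condition. The log2 ratio of mutant to WT at ZT14 minus that at ZT2 was 0.20 for miR-20a, with a spot SD of 0.14, and −0.19 for miR-92a, with a spot SD of 0.12. These members thus moved to opposite sides, but miR-92a is also made on the X chromosome, so its value cannot be assigned to the Mir17hg transcript alone. For the other 5 members it was between −0.16 and 0.17 and within the spot SD, and over all 123 miRNAs it had an SD of 0.62 around a median of −0.06.

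The third comparison set the members of each primary transcript against each other. The 4 Mir17hg members spanned 0.76 on the log2 scale for ZT14 to ZT2 in WT and 0.40 in the mutant, with miR-19a lowest and miR-92a highest each time. For mutant to WT they spanned 0.45 at ZT2, again between miR-19a and miR-92a, and 0.31 at ZT14, between miR-19a and miR-20a. In the 4 comparisons the 3 Mcm7 members spanned from 0.25 to 0.37, with miR-106b lowest and miR-25 highest in all of them. The WT difference in log2 ratio of miR-19a from miR-92a, −0.76, was past its spot SD of 0.18, as was that of miR-20a from miR-92a, −0.55 with 0.14, and that of miR-19b from miR-92a, −0.46 with 0.11. Since miR-19b and miR-92a are also made on the X chromosome, the pair whose mature sequences come from this transcript alone is miR-19a and miR-20a. Their ratios of ZT14 to ZT2 differed by −0.21 with a spot SD of 0.20 in WT and by −0.24 with 0.14 in the mutant. Probe sequences were not given. Whether probes of miR-19a and miR-19b, of miR-20a and its X chromosome paralog miR-20b, or of miR-92a and miR-25 also bind the other strand could therefore not be examined.

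Of the 9 pairs of members on the same transcript, the log2 ratios differed by more than the spot SD in 6 for ZT14 to ZT2 in WT, 6 in the mutant, 6 for mutant to WT at ZT2 and 4 at ZT14. Among the 12 pairs on different transcripts the counts were 10, 6, 5 and 5. The median absolute difference was 0.30 on the log2 scale for pairs on the same transcript and 0.34 for pairs on different ones in WT between time points, and 0.18 and 0.15 in the mutant. For mutant to WT it was 0.24 and 0.15 at ZT2 and 0.22 and 0.16 at ZT14. Pairs on the same transcript had the larger median difference in 3 of the 4 comparisons. The pairs reuse the same members and are not independent, and those with miR-19b or miR-92a cannot be assigned to 1 transcript. No conclusion on members made together is drawn from these medians. The pair miR-92a and miR-25, which have the same seed and lie on different transcripts, differed by 0.02, 0.01, 0.05 and 0.08 in size in the 4 comparisons, in each case within the spot SD. The pair miR-19a and miR-19b, with the same seed, the same transcript and 1 base between them, differed by −0.30 with a spot SD of 0.18 in WT and by −0.18 with 0.13 in the mutant for ZT14 to ZT2. At ZT14 the genotype ratio of miR-20a lay 0.52 above that of miR-106b, with a spot SD of 0.18, and 0.29 above that of miR-93, with 0.27, although all 3 have the seed AAAGUGC.

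Each member was read by 2 probes, and the probes gave a second reading of each ratio from the same RNA. The sign of the ratio was the same with both probes for 7 of 7 members in each of the 4 comparisons. Between times, however, 77.2% of the 123 miRNAs in WT and 82.9% in the mutant were also below 0. Relative to the median of the 123, the dimmer probe in the mutant gave 0.0361 for miR-92a, 0.0373 for miR-93 and 0.0696 for miR-25. With both probes together these were −0.10, −0.20 and −0.02. For miR-19a, miR-20a, miR-19b and miR-106b the distance stayed below 0 with that probe. In WT, the log2 ratio of ZT14 to ZT2 for miR-19a was −0.83 with the brighter and −0.86 with the dimmer probe, and for miR-92a it was −0.07 and −0.12. The probes differed by more than the spot SD for 2 members at ZT2 between genotypes, 1 at ZT14, none in WT and 2 in the mutant between times. The one at ZT14 was miR-93, with 0.02 for the brighter and 0.49 for the dimmer probe, whose signal was only 12.4 to 28.5 units. For miR-92a at ZT2 the genotype ratio was 0.38 with the brighter and 0.18 with the dimmer probe.

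**Figure D4:**
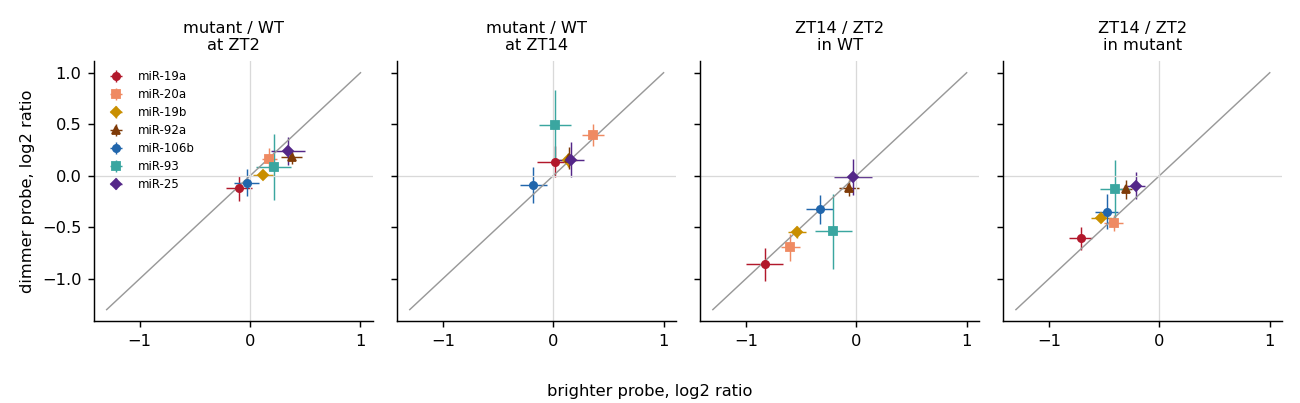
Log2 ratio from the dimmer probe (vertical axis) against that from the brighter probe (horizontal axis) of each of the 7 members, in the 4 comparisons. Bars are the SD of repeated spots and the diagonal marks equal ratios. In WT between time points the members keep their spread along the diagonal with both probes, from −0.83 and −0.86 for miR-19a to −0.03 and −0.02 for miR-25, and miR-93 lies off it for mutant to WT at ZT14.

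The order of the members by base composition of the mature strand ran largely with that of their ratios between time points. The member poorest in G and C, miR-19a, had the lowest limma difference, miR-20a and miR-19b with 39.1% followed, then miR-106b with 42.9%, and the 3 members with 50% or more, miR-93, miR-92a and miR-25, had the smallest differences. Over 102 of the 123 miRNAs (82.9%) whose name matched a RefSeq entry, the content of G and C, averaged over the arms listed, and the mean log2 ratio of ZT14 to ZT2 of both genotypes had a Pearson r of 0.35 and a Spearman rho of 0.33. All these points share the same 4 arrays. On this measure over both arms miR-106b stood at 53.2%, next to miR-25 at 54.5%, and so out of the order given for the mature strands. The ratio of mutant to WT averaged over both times had an r of 0.01 with the same measure. A line on this measure over both arms was taken out of each array, a step added once the values had been seen. For miR-106b the line thus used 53.2% and not the 42.9% of its mature strand. The limma differences between times were then −0.60 for miR-19a, −0.44 for miR-20a, −0.42 for miR-19b and −0.47 for miR-106b. They were −0.43 for miR-93, −0.32 for miR-92a and −0.22 for miR-25. The limma adjusted p of the 7 members ran from 0.158 to 0.454 over the 102 miRNAs. The range over the Mir17hg members then fell from 0.76 to 0.49 on the log2 scale in WT and from 0.40 to 0.17 in the mutant. The median over the 102 miRNAs in that fit was −0.17, and all 7 members lay below it. Whether base composition had a part in the ratios between time points was not tested.

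**Figure D5:**
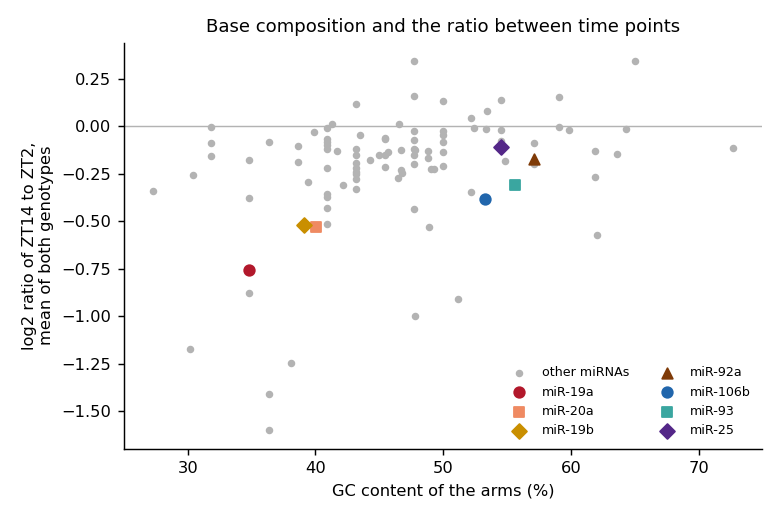
Log2 ratio of ZT14 to ZT2, averaged over WT and *Clock* mutant, against the content of G and C of the arms listed in RefSeq, for 102 miRNAs detected on all 4 arrays. Grey points are other miRNAs and coloured points the 7 members, from −0.76 for miR-19a at 34.8% to −0.17 for miR-92a at 57.1%. Over the 102 points the Pearson r is 0.35.

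The miR-106a-363 transcript on the X chromosome is the third paralog of the family, and 3 of the 4 members looked for had probes of their own name. Of these, miR-18b and miR-363 were not detected on any array and miR-20b on all 4. The mature sequence of miR-20b is shown because it differs from that of miR-20a at 2 positions (U1C and U10C).
mmu-miR-20b: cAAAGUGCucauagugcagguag
Its scaled signal was 0.301 in WT against 0.320 in the mutant at ZT2, and 0.191 against 0.242 at ZT14. As for miR-20a, both ZT14 arrays were below both ZT2 arrays, and the mutant was above WT at both times. The log2 ratio of ZT14 to ZT2 was −0.66 with a spot SD of 0.13 in WT and −0.40 with 0.10 in the mutant, and the limma difference was −0.53 with an adjusted p of 0.346. The other array miRNAs with a seed of a member, miR-32, miR-367 and miR-92b, were detected on none of the arrays. Of the 7 star strands of members on the arrays, 1 was detected, miR-17* on 3 arrays, with signals at ZT2 of 18.8 units in WT against 14.7 in the mutant, and of 18.3 in the mutant at ZT14.

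By the root mean square difference of profiles over the 4 arrays, each centred on its own mean, the miRNAs outside the clusters most like the mean of the Mir17hg members were miR-20b, miR-29b and miR-340-5p. Their differences were 0.06, 0.08 and 0.10 on the log2 scale, against a median of 0.25 over 116 miRNAs. The miRNAs most like the Mcm7 members were miR-340-5p, miR-16 and miR-101b, with 0.05, 0.05 and 0.06 against a median of 0.16. Within the Mir17hg transcript, miR-19b with 0.02 was the nearest to the mean and miR-92a with 0.18 the farthest.

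Markers of the liver and of other cell types were read on the same arrays. The hepatocyte miRNA miR-122 was the strongest of its list, with scaled signals from 86.5 to 111, and all 4 hepatocyte markers were detected on every array. Its log2 ratio of ZT14 to ZT2, −0.17 for WT and −0.18 for the mutant, lay near the median of all miRNAs. Of 6 leukocyte markers 3 were detected on all 4 arrays, and the summed scaled signal of these was 1.33 in WT against 0.883 in the mutant at ZT2 and 0.736 against 0.775 at ZT14. The myeloid miRNA miR-223 and miR-142-3p, which marks blood cells, were lower at ZT14 in WT, with log2 ratios of −0.51 and −1.09, and in the mutant these were −0.11 and −0.24. Of 3 red blood cell markers 2 were detected on all arrays, with a summed scaled signal of 3.32 in WT against 5.91 in the mutant at ZT2 and of 2.94 against 2.55 at ZT14. For miR-144 the log2 ratio of ZT14 to ZT2 was −0.90 for WT and −1.45 for the mutant, and for miR-451 it was −0.16 and −1.21. Muscle markers were detected in WT at ZT2 alone, 3 of 4. Of 5 bile duct markers 2 were detected on all arrays, miR-200a and miR-200b, with a summed scaled signal of 0.174 in WT against 0.0976 in the mutant at ZT2 and of 0.0811 against 0.123 at ZT14. Their log2 ratios of ZT14 to ZT2 were −1.07 and −1.13 for WT, lower than that of any member, and 0.19 and 0.47 for the mutant. In WT the leukocyte, red blood cell and bile duct markers detected on all arrays had log2 ratios below 0 between time points, as the members did. In the mutant the leukocyte and red blood cell markers had, by other amounts. The hepatocyte and endothelial markers were below 0 in both genotypes as well. So were 77.2% of the 123 miRNAs in WT and 82.9% in the mutant, and the sign is thus not particular to any of these cell types. The part of these cells in the members' ratios was not tested. In pooled liver, fewer cells of a type and less RNA per cell cannot be told apart. The endothelial markers, 2 of 2 detected on all arrays, had summed scaled signals from 3.61 to 4.25.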

How the data were processed

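Liver RNA of 4 conditions was read on 4 arrays, 1 pool of 3 mice each, scanned in 1 colour. The authors deposited the output of Agilent Feature Extraction 10.7.1.1, a linear intensity per spot after background subtraction, with outlier flags and a detection call per miRNA. The deposited log2 table equals, for 611 of 611 mouse miRNAs within 0.001, the log2 of the sum over detected probes, or of 0.1 where none was, minus 1 number per array. At ZT2 this number was 4.18 for WT and 3.27 for the mutant, and −3.32 for both arrays at ZT14, so the ZT14 columns were centred otherwise than the ZT2 columns. Column medians are −7.51, −6.59, 0 and 0. The table was used as an alternative alone.

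Intensities were averaged over spots without outlier flags, then over probes, and divided by the array's 75th percentile over those mouse miRNAs, 123, that all 4 arrays detected. Signal over background sets the precision. Ratios of 2 arrays had no test. Genotype and time were fitted with limma 3.58.1 in R 4.3.3 and Benjamini-Hochberg adjustment over the 123 miRNAs. Tested on simulated data with the same SD of 0.15 for every miRNA, the genotype fit on 123 miRNAs called 30 of 30 miRNAs changed by 1.5 on the log2 scale and 1 of the unchanged. The largest genotype difference of a member was 0.27, for miR-20a, so the simulation does not show that changes of the members' size would be called. The rest was done in Python 3.11.15 (pandas 2.3.3, numpy 2.4.6, matplotlib 3.10.9). Alternatives changed the background correction, scaling, averaging of spots and probes, detection rule, fold threshold and fit, left out each array, or used the log2 table, and those on G and C content and on the negative control floor were added once the values had been seen. Array names carry no arm and were paired by hand with the RefSeq name of the main mature strand, such as miR-19a with miR-19a-3p. The arrays name no genome build.

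The members, the lists and the tests were chosen with earlier results of these data known. All 9 members are named, with the paralogous miR-106a-363 transcript, same-seed miRNAs, the detected star strand, the 3 miRNAs most like each transcript and cell type markers. miRNAs of these names alone were described.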

Additional observations from a re-analysis of the deposited data

How the results depend on the processing

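No paired analysis was possible because the replicate number was 1 for every condition, with no second array to pair. Of the values that answer a comparison, recomputed under the alternatives, 284 stayed within the spread of repeated spots, or within 1.5 times for counts, and 36 did not. The 284 include distances from the median that scaling by 1 number per array leaves as they are by construction. They also include distances from the authors' table, which repeat those from the sum over detected probes. The tally thus overstates how far the values hold. Distances from the median of the 123 miRNAs do not depend on scaling by 1 number per array, while counts of members past 2-fold (0 in each comparison) do. Without scaling they were 1 for mutant to WT at ZT14 and 3 for ZT14 to ZT2 in WT, with spike-in probes 1 and 4, with the scanner's summed signal 1 and 1. In the same 2 comparisons the median over the 123 miRNAs was 0.63 and −0.79 without scaling, and 0.78 and −0.86 with spike-in probes. The authors' log2 table gave 3 at ZT2 and 1 at ZT14 between genotypes, and 7 in WT and 8 in the mutant between times, where its columns were centred differently. Its medians over the 123 miRNAs were 0.80 and 0.64 between genotypes, and 6.77 and 6.60 between times. At 1.5-fold the count was 2 in WT and 1 in the mutant between times. Shares of all miRNAs past the threshold are not given for these alternatives, so the counts are no result about the members. Median distances from all miRNAs moved to 0.29 for the Mir17hg members at ZT14 between genotypes with normexp, to −0.16 (mutant to WT at ZT14) and 0.0642 (ZT14 to ZT2 in WT) for the Mcm7 members with the summed signal, to −0.20 for the Mir17hg members in the mutant between times with G and C content fitted out, and to 0.0373 for the Mcm7 members there with the dimmer probe alone. The range over the Mcm7 members with the summed signal was 2.57 at ZT14 between genotypes and 2.57 in WT between times, both from miR-93. The range over the Mir17hg members between times was 0.47 in WT and 0.22 in the mutant with normexp, 0.13 in the mutant with quantile normalization, and 0.49 and 0.17 with G and C content fitted out. The cause of these shifts was not tested.

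The limma fit, which called 0 of 123 for each term, called 6 for genotype with normexp, 3 with the sum over detected probes and 79 with the authors' table, and 5 for time without scaling, 3 with spike-in probes, 3 with normexp and 123 with the authors' table. With G and C content fitted out it called 1 for each term. With 1 term alone and 1 array left out, where the lone array of a condition is assumed to vary like the others, the calls ran from 0 to 7 for genotype and from 0 to 13 for time, 7 without the mutant array at ZT2, and 13 without the WT and 1 without the mutant array at ZT14. Members were called only with the authors' table and, for time, 1 without the WT array at ZT14. Members whose limma difference changed side of the median of all miRNAs were, for genotype, miR-19a (0.00 in the fit as reported) with normexp (−0.0149) and the summed signal (−0.0625), miR-93 with the summed signal (−1.15), and with an array left out miR-106b (0.0167 to 0.0677), miR-19a (−0.34 to −0.25) and miR-19b (−0.0495 to −0.0223). For time they were miR-93 with the summed signal (1.05), miR-25 with G and C content fitted out (−0.0478), and with an array left out miR-25 (−0.11 to −0.0460) and miR-92a (0.0673 to 0.16). Differences from the median of all miRNAs that kept their side and moved by over 1.5 times with an array left out were, for genotype, those of miR-20a (0.29 with all arrays, 0.0605 to 0.54) and miR-93 (0.16, 0.0658 to 0.27), and for time those of miR-20a (−0.38, −0.57 to −0.18) and miR-93 (−0.16, −0.24 to −0.0408).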
